A study of Mus musculus with 16 samples.

Results

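Livers of 16 male mice fed chow were divided by a score made from 3 genes of the circadian clock. The rest of the array was compared between the resulting sets. All 16 arrays of the series took part. Of these mice, 8 were wild type and 8 were Lpl+/-, which carry 1 knockout allele of Lpl, the gene of lipoprotein lipase, and the wild type mice were their littermates. Each liver was hybridised on a 2-colour array against 1 common reference, liver RNA pooled from 9 wild type mice, so every value is a log ratio of a mouse and that pool. The labels give neither the age of the mice nor the hour at which livers were taken, and they do not say what the mouse numbers stand for or whether the pooled mice were also hybridised singly. The mice of both sets share sex, diet and reference pool, and a ratio to a liver pool cannot show the absolute level of a liver marker.

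The sets were chosen by measured values. For each mouse a score was formed as the log ratio of Arntl minus the mean of the log ratios of Dbp and Per2, and the 7 mice with a score below 0 (wild type 1, 2, 4 and 5 and Lpl+/- 1, 2 and 3) were compared with the 9 mice above 0 (wild type 6, 7, 8 and 9 and Lpl+/- 4, 5, 6, 7 and 8). They are called low-score and high-score mice here. A gene that differs between them therefore moved with Arntl, Dbp and Per2 across mice, and the p-values measure this and not the effect of a treatment. Ratios were read as mouse over pool and as log10, both of which are likely but not settled. If the ratio ran the other way, the sets would swap, while each low-minus-high difference would keep its sign.

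In the mammalian clock, the proteins of Arntl (BMAL1) and Clock or Npas2 bind E-box sequences and switch on the Per and Cry genes, whose products return to inhibit them. The same pair drives Nr1d1, Dbp, Tef and Bhlhe40. NR1D1 represses Arntl through ROR elements, while DBP and TEF, factors of the PAR bZip family, act through D-boxes. In liver, Arntl RNA runs nearly opposite to Dbp and Per2 over the day, and a large share of the genes of lipid, bile acid, glucose and drug metabolism cycle with them.

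Promoters of 4 genes that differed between the sets are shown because they hold the letters these factors are known to bind. The sequences are those of RefSeq on GRCm38.p6, each the 250 bases before an annotated start, written 5′ to 3′ on the gene's strand. Capitals mark an E-box (CACGTG) or a D-box (TTATGTAA), searched on both strands. Positions count from the annotated start. Tef was named after its values were seen.
Per1, chr11:69098699-69098948, plus strand, E-box at position -166: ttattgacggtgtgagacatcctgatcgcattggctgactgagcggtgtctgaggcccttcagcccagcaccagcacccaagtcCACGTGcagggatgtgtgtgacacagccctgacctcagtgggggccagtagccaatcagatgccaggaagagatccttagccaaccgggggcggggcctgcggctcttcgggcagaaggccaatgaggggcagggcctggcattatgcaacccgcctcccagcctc
Per3, chr4:151044666-151044915, minus strand, D-boxes at positions -205 and -158: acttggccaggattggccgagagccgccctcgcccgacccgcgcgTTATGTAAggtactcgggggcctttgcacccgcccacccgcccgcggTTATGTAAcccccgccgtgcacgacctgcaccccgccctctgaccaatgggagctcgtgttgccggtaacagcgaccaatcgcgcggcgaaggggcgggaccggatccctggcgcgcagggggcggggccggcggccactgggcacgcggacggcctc
Tef, chr15:81802423-81802672, plus strand, E-box at position -127: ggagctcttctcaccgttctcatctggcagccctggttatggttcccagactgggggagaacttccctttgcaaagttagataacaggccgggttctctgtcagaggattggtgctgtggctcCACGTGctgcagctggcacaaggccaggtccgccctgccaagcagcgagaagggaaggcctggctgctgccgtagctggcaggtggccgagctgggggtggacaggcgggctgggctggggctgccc
Nr1i3, chr1:171213720-171213969, plus strand, E-box at position -244: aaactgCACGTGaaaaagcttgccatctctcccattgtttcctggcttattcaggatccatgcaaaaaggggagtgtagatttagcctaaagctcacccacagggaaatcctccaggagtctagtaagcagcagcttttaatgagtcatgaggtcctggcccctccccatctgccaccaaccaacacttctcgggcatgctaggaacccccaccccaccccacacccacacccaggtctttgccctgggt
Per1 and Per3 encode period proteins of the core loop, Tef encodes a PAR bZip factor, and Nr1i3 encodes CAR, a nuclear receptor of drug metabolism. All 4 were higher in the low-score mice, with values given below.

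The scores fell into a low set from -0.811 to -0.417 and a high set from 0.0906 to 0.857. Just inside the low set stood wild type 2 at -0.417, and just outside it Lpl+/- 4 at 0.0906 and wild type 7 at 0.159. Arntl, on chromosome 7, ran from -0.641 to -0.282 in the low-score mice with a median of -0.456, and from -0.0649 to 0.495 in the high-score mice with a median of 0.128. Dbp, also on chromosome 7, ran from 0.0594 to 0.164 with a median of 0.125 in the low-score mice, and from -0.408 to -0.105 with a median of -0.174 in the high-score mice. Per2, on chromosome 1, ran from 0.106 to 0.224 with a median of 0.184, against -0.316 to -0.119 with a median of -0.166. These 3 genes made the sets, so their separation is a description and carries no test. The sign of the mean of Dbp and Per2 alone gave the same sets, and the sign of Arntl alone moved 1 mouse, Lpl+/- 4. Dbp was measured by 2 probes of unequal range, 1 of which reached -0.757 in Lpl+/- 5 where the other stood at -0.0596.

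**Figure D1:**
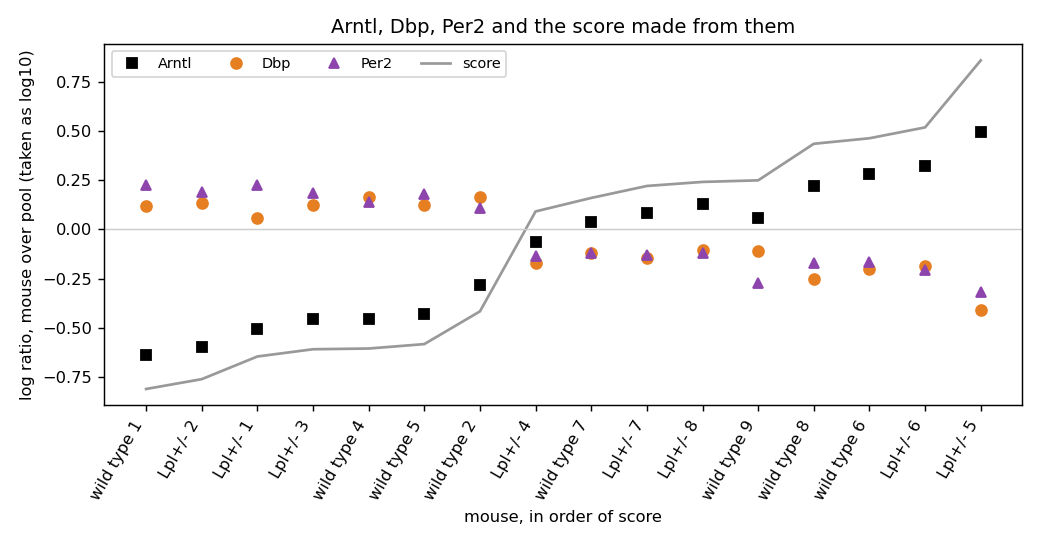
Log ratios of Arntl, Dbp and Per2 (mouse over pool, taken as log10) and the score made from them, for the 16 mice in order of score. Arntl lies below 0 and Dbp and Per2 above 0 in all 7 low-score mice, while in the high-score mice Dbp and Per2 lie below 0 and Arntl lies between -0.0649 and 0.495.

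The low-score set held mouse numbers 1 to 5 and the high-score set numbers 4 to 9, and number and set cannot be told apart for most mice. Values at the deposited limit of 2 numbered 4 to 88 per array in the low-score mice and 0 to 28 in the high-score mice, and were most frequent in wild type 4, Lpl+/- 3 and Lpl+/- 8, the limit-rich arrays. Over all probes, pairs of low-score mice had a median correlation of 0.141, pairs of high-score mice 0.0173 and pairs across the sets -0.0565. Wild type 5 and wild type 8, in different sets, correlated at -0.352. A further mouse, wild type 6, stood apart from its set when each mouse was placed on the features called without it, and counts that rest on it are given with and without it. The part of these array differences in the results was not tested beyond those repeats. Wild type 6 was singled out after its values were seen, so more calls without it are no independent support.

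With genotype as a covariate, 397 of 36821 features other than the 3 markers were called, that is, had a Benjamini-Hochberg adjusted p under 0.05 in limma. This was 1.08% of all features. Of them, 261 (0.709%) were higher and 136 (0.369%) lower in the low-score mice, and 321 had a gene symbol. The values of the low-score and high-score mice did not overlap at all for 180 features (0.489%), 166 of which were called. The called features differed by a median of 0.132 in size, against 0.0175 over all features, and 35 of them by more than 0.3. Before adjustment, 4110 features (11.2%) had a p under 0.05. The count rests on the variance model: with a robust and trended prior, limma called 0 features while 3695 kept an unadjusted p under 0.05. Without wild type 6 it was 695 (1.89%), and without the 3 limit-rich arrays it was 205 (0.557%).

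Beyond the genes of the score, the core loop moved in part. Of 14 core genes 10 were measured outside the score, and 3 were called: Per1 and Per3 were higher in the low-score mice and Clock was lower, while Cry1, Cry2, Npas2, Nr1d1, Rora, Csnk1d and Csnk1e did not pass. The share called, 30%, stood beside 1.08% of all features, and the same 3 were called without wild type 6.

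Clock, on chromosome 5, encodes the partner of BMAL1. It ran from -0.212 to -0.0657 in the low-score mice with a median of -0.161, and from 0.001 to 0.125 in the high-score mice with a median of 0.0677. The sets did not overlap, and Clock fell by 0.223 ± 0.0224 (SE, 7 against 9 mice; limma adjusted p = 0.00016), like Arntl. Per3 ran from 0.06 to 0.163 in the low-score mice with a median of 0.108, and from -0.168 to -0.0408 in the high-score mice with a median of -0.0804. It rose by 0.191 ± 0.0197 (limma adjusted p = 0.000209), again without overlap. Its 2 probes were unequal, at 0.337 and 0.0445, and only the first was called by itself. Per1 rose less, by 0.0683 ± 0.0129 (limma adjusted p = 0.015), from a median of -0.0377 in the high-score mice to 0.0347 in the low-score mice, and its sets overlapped.

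The cryptochromes, the partners of the period proteins in repression, stood higher in the low-score mice without passing the test. Cry2 had a difference of 0.102 ± 0.0402 (limma adjusted p = 0.324) and Cry1 of 0.102 ± 0.0647 (limma adjusted p = 0.624). Npas2, which can stand in for Clock, had a difference of -0.0153. The casein kinases Csnk1e and Csnk1d, which mark period proteins for decay, had differences of 0.0201 and 0.00682, and Rora, an activator at ROR elements, of 0.00793. Nr1d1, the repressor of Arntl, ran from -0.113 to 0.0708 in the low-score mice and from -0.0943 to 0.0873 in the high-score mice. Its difference was 0.000387 with a 95% interval from -0.0655 to 0.0663, which in log10 is a ratio between 0.86 and 1.17. Both of its probes had small differences, 0.0163 and -0.0155. Nr1d1 is known to cycle in liver, and it did not separate the sets. With the hour of sampling not given, the sets keep the name of their score here.

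**Figure D2:**
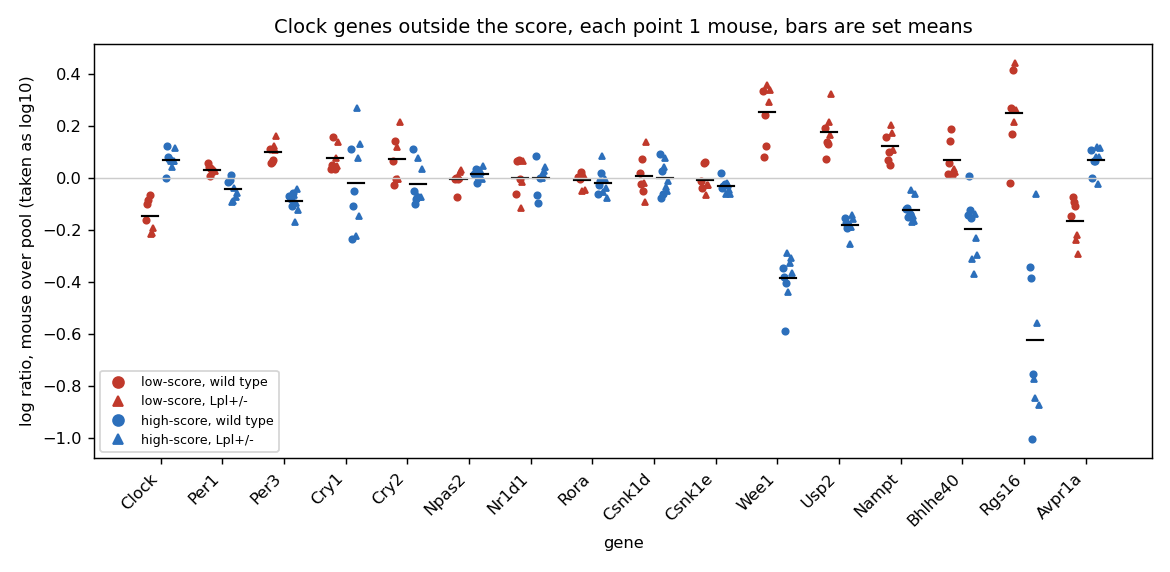
Log ratios (mouse over pool, taken as log10) of 10 core clock genes and 6 output genes that had no part in the score, with 1 point per mouse and a bar at each set's mean. Clock, Per3, Wee1, Usp2, Nampt, Bhlhe40, Rgs16 and Avpr1a separate the 7 low-score from the 9 high-score mice without overlap. Both sets span much the same range for Nr1d1. The 6 output genes are those with the smallest p in this split, so their separation is in part a result of that choice. Over the whole lists, 7 of 20 output genes and 2 of 10 core genes had no overlap, beside 0.489% of all features.

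The list of clock output genes showed the largest share of calls of any list. Of 20 measured genes 8 rose in the low-score mice (Tef, Bhlhe40, Usp2, Wee1, Nampt, Noct, Rgs16 and Gys2) and 1 fell (Avpr1a), with a median difference of 0.117 against -0.00211 over all features. The share was 45% beside 1.08% of all features. The same 9 were called without wild type 6, and 7 were called without the 3 limit-rich arrays. Tef, Noct and Gys2 were named after their values were seen.

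Wee1, the kinase that holds back entry into mitosis, ran from 0.0839 to 0.358 in the low-score mice with a median of 0.295, and from -0.587 to -0.288 in the high-score mice with a median of -0.364. The gap between the sets was wide, and Wee1 had the smallest p of all features, with a rise of 0.65 ± 0.0402 (limma adjusted p = 1.73e-06). In log10 this is 4.47-fold, with a 95% interval from 3.67 to 5.44, and were the base 2 it would be 1.57-fold. Usp2, a deubiquitinating enzyme, ran from 0.0764 to 0.325 against -0.251 to -0.142 and rose by 0.363 ± 0.0269 (limma adjusted p = 8.09e-06). Nampt, the rate-limiting enzyme of NAD salvage, ran from 0.0521 to 0.205 against -0.167 to -0.0452 and rose by 0.251 ± 0.0232 (limma adjusted p = 8.8e-05). For both genes every low-score mouse stood above every high-score mouse.

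Rgs16, which shortens G protein signals, had the largest difference on the array among called genes with a symbol. It ran from -0.0192 to 0.445 in the low-score mice with a median of 0.262, and from -1 to -0.061 in the high-score mice with a median of -0.751. The high-score mice were spread widely, and the nearest values of the sets were close, yet they did not overlap. Its rise was 0.878 ± 0.123 (limma adjusted p = 0.00175), or 7.54-fold in log10 with a 95% interval from 4.14 to 13.8. Bhlhe40, a repressor at E-boxes, rose by 0.248 ± 0.0359 (limma adjusted p = 0.00221). Tef rose by 0.331 ± 0.0601 (limma adjusted p = 0.0116), from a median of -0.195 to 0.157, and the sets overlapped through wild type 6 at 0.0399. Avpr1a, the receptor of vasopressin in hepatocytes, ran the other way, from -0.29 to -0.0701 against -0.021 to 0.12, and fell by 0.242 ± 0.0296 (limma adjusted p = 0.000795).

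The promoter letters were counted over all called genes with a RefSeq window from 250 bases before to 50 after a start. An E-box was present for 31 of 149 genes that were higher in the low-score mice (20.8%), for 7 of 83 that were lower (8.43%) and for 1516 of 15797 measured genes (9.6%). A D-box was present for 6 of the 149 (4.03%), 0 of the 83 and 0.956% of the measured genes. The ROR element (TAGGTCA) was present for 1.34%, 4.82% and 2.62%, and the cAMP response element (TGACGTCA), of which the Per genes are known targets, for 0.671%, 3.61% and 2.63%. These shares are descriptions of letters in 1 window length, without a test, and a match is not a site of binding. Of 76 genes looked up 60 had a window, and 8 held an E-box. Of these 8, Per1, Tef and Nr1i3 were called, and the other 5 were not (Cry1, Fkbp5, Insig1, Pfkfb3 and Plin2). The genes looked up were picked largely by their p or difference in this split. Apart from the 3 markers, 43 of them were called and 30 were not, beside 1.08% of all features called. The count among the 8 therefore cannot show whether genes with an E-box were called more often.

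Genes of drug metabolism that depend on the PAR bZip factors stood higher in the low-score mice in all 14 of the 14 measured, with a median of 0.129, and 4 of them rose by the test. Of these 4, Cyp2a4 and Cyp2a5 are near-identical copies whose values differed by at most 0.0282 in any of 16 mice. With the pair as 1 measurement, 3 of 13 rose (23.1%, beside 0.709% of all features). Nr1i3 ran from -0.0476 to 0.17 against -0.143 to 0.021 and rose by 0.148 ± 0.0269 (limma adjusted p = 0.0119). Its 2 probes stood at 0.153 (limma adjusted p = 0.038) and 0.143 (limma adjusted p = 0.197), and only the first was called by itself. Por, the reductase that feeds electrons to cytochromes P450, rose by 0.267 ± 0.0461 (limma adjusted p = 0.00806). For these 2 genes the sets overlapped at their edges. The cytochromes Cyp2a4 and Cyp2a5 rose by 0.555 ± 0.088 (limma adjusted p = 0.00475) and 0.556 ± 0.0902 (limma adjusted p = 0.00527). Of the 4, 4 were called without wild type 6 and 1 without the 3 limit-rich arrays.

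Lipid synthesis moved with the score in part. Of 18 measured genes of fatty acid synthesis 3 rose in the low-score mice (16.7%, beside 0.709% of all features) and none fell, with a median of 0.102. Thrsp (Spot 14), a regulator of lipogenesis, ran from -0.0527 to 0.499 with a median of 0.351 in the low-score mice, and from -0.571 to -0.0373 with a median of -0.437 in the high-score mice. It rose by 0.656 ± 0.0857 (limma adjusted p = 0.00106), and the overlap came from wild type 4 at the bottom of the low-score mice and wild type 6 at the top of the high-score mice. Elovl6, a fatty acid elongase, rose by 0.217 ± 0.0429 (limma adjusted p = 0.0204) and Srebf1, the master regulator of lipogenic genes, by 0.232 ± 0.0508 (limma adjusted p = 0.0382). Elovl6 was called in 14 and Srebf1 in 4 of 16 fits that left out 1 mouse. Pklr, the liver pyruvate kinase, had a difference of 0.122 ± 0.0338 (limma adjusted p = 0.116). Without wild type 6, 5 were called, Pklr and Fasn joining them, and without the 3 limit-rich arrays 2 were called. Of 15 genes of cholesterol synthesis 0 were called, and 2 had an unadjusted p under 0.05, as did 11.2% of all features. The nearest by p was Stard4, a sterol carrier, at 0.173 ± 0.0449 (limma adjusted p = 0.089), which was called without wild type 6.

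Bile acid genes gave 2 calls of 16 (12.5%), both higher in the low-score mice, as were 0.709% of all features. Nr1h4, the bile acid receptor FXR, rose by 0.0924 ± 0.0194 (limma adjusted p = 0.029) and Abcc2, a canalicular exporter, by 0.0784 ± 0.0176 (limma adjusted p = 0.0445). They were called in 8 and 3 of 16 fits that left out 1 mouse. The sterol exporters Abcg5 and Abcg8 had differences of 0.185 ± 0.043 (limma adjusted p = 0.0522) and 0.165 ± 0.0457 (limma adjusted p = 0.114). Without wild type 6 these counts became 5 of 16, with Abcg5, Abcg8 and Cyp7a1, the rate-limiting enzyme of bile acid synthesis, added. Without the 3 limit-rich arrays none of the 16 was called.

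Among 20 genes of glucose production and insulin response 2 rose, Slc2a2 (GLUT2), the glucose carrier of hepatocytes, by 0.208 ± 0.0332 (limma adjusted p = 0.00497) and Slc37a4, the glucose-6-phosphate carrier, by 0.186 ± 0.0392 (limma adjusted p = 0.0296). This was 10%, beside 0.709% of all features. Neither of the 2 probes of Slc2a2 was called by itself, at 0.246 (limma adjusted p = 0.0762) and 0.169 (limma adjusted p = 0.348), and Slc37a4 was called in 8 of 16 fits that left out 1 mouse. Pfkfb3 had a difference of 0.187 ± 0.0461 (limma adjusted p = 0.0708). Of these 20, 3 were called without wild type 6 and 1 without the 3 limit-rich arrays. Of 20 genes of fasting and fatty acid oxidation only Lpin1, a phosphatidate phosphatase and coactivator, rose (5%, beside 0.709% of all features), by 0.457 ± 0.0967 (limma adjusted p = 0.0298). It ran from -0.0755 to 0.648 in the low-score mice and from -0.452 to 0.0632 in the high-score mice, a wide overlap. It was called in 6 of 16 fits that left out 1 mouse and not without the 3 limit-rich arrays. The other members of that list lay on both sides of 0, with a list median of -0.00662. Plin2, of the lipid droplet coat, had a difference of -0.214 ± 0.0768 (limma adjusted p = 0.261) and Pdk4, which saves glucose in fasting, of -0.186 ± 0.0767 (limma adjusted p = 0.35).

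**Figure D3:**
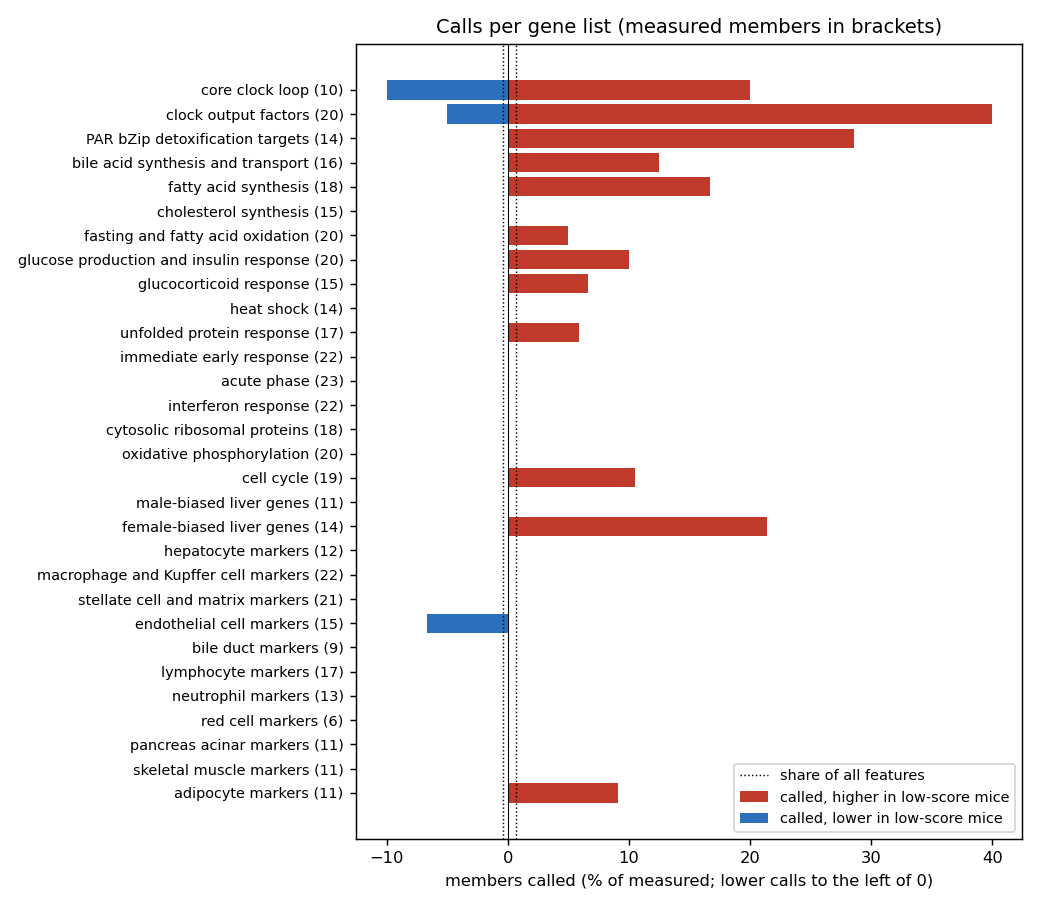
Share of the measured members of each gene list that were called higher (to the right) or lower (to the left) in the low-score mice, in percent, with dotted lines at the shares of all features, 0.709% and 0.369%. Counting both directions, clock output genes (8 of 20 higher, 1 lower), core clock genes (30%) and PAR bZip targets (28.6%) have the longest bars. Female-biased liver genes follow at 21.4%. The PAR bZip bar counts the near-identical Cyp2a4 and Cyp2a5 as 2 genes. The acute phase, interferon and macrophage lists have no bar. Bars count calls only, and members at a small unadjusted p are not drawn.

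Signals that can shift liver clocks were measured as lists too. Of 15 glucocorticoid response genes 1 was called (6.67%, beside 0.709% of all features higher). It was Per1, which is a clock gene as well, and Fkbp5 had a difference of 0.189 ± 0.077 (limma adjusted p = 0.346). None of 14 heat shock genes was called in limma, with 2 at an unadjusted p under 0.05 and Hsp90aa1 nearest at -0.177 ± 0.0516 (limma adjusted p = 0.139). None of 22 immediate early genes was called in limma, with 1 at an unadjusted p under 0.05. That unadjusted p was met by 11.2% of all features. Among 17 genes of the unfolded protein response Herpud1, of the degradation machinery of the endoplasmic reticulum, rose by 0.234 ± 0.0261 (limma adjusted p = 0.000389) and its sets did not overlap. It was the 1 called of the 17 (5.88%, beside 0.709% of all features higher). The chaperones of the same list lay the other way, with Manf at -0.114 ± 0.0298 (limma adjusted p = 0.0905) and Hspa5 at -0.147 ± 0.0495 (limma adjusted p = 0.218), neither past the test, and 13 of 17 members were negative.

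Of 19 cell cycle genes 2 rose, Ccne2 (cyclin E2) by 0.128 ± 0.0245 (limma adjusted p = 0.0158) and Rrm2, a subunit of ribonucleotide reductase, by 0.116 ± 0.0232 (limma adjusted p = 0.0214). This was 10.5%, beside 0.709% of all features, and 1 of the 19 was called without the 3 limit-rich arrays. The 2 probes of Rrm2 stood at 0.191 and 0.0415, and only the first was called by itself. Ccne1 had a difference of 0.141 ± 0.0337 (limma adjusted p = 0.0603). Of 14 genes known to be higher in female liver 3 rose (21.4%, beside 0.709% of all features), Cyp2a4 as above, Fmo2 by 0.231 ± 0.0442 (limma adjusted p = 0.0163) and Acot3 by 0.333 ± 0.0746 (limma adjusted p = 0.0438). Acot3 was called in 5 of 16 fits that left out 1 mouse, and 1 of the 14 was called without the 3 limit-rich arrays. None of 11 genes known to be higher in male liver was called in limma. Of them, 2 had an unadjusted p under 0.05, beside 11.2% of all features, and Elovl3 had a difference of -0.31 ± 0.09 (limma adjusted p = 0.139). All mice were male per the labels.

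No member of the acute phase or interferon lists passed the test. All 23 acute phase genes were negative with a median of -0.176 and 0 were called in limma. Of the 23, 9 had an unadjusted p under 0.05, beside 11.2% of all features. Fgg, a fibrinogen chain, ran from -0.304 to -0.0494 against -0.133 to 0.169 (difference -0.189 ± 0.0492, limma adjusted p = 0.0892), and Fga, another chain, had a difference of -0.228 ± 0.0633 (limma adjusted p = 0.115). The mean level of the list lay between -0.464 and -0.12 in the low-score mice and between -0.364 and 0.405 in the high-score mice. Without wild type 6, 2 of its 23 members were called, both lower, Fgg and Crp. Of 22 interferon response genes 17 were negative, 7 had an unadjusted p under 0.05 and 0 were called in limma, with Rsad2 at -0.129 and Stat2 at -0.109.

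Of 22 markers of macrophages and Kupffer cells 21 were negative, with a median of -0.108, and 0 were called in limma. Of the 22, 15 had an unadjusted p under 0.05, beside 11.2% of all features. The mean level of this list lay between -0.129 and -0.063 in the low-score mice and between -0.134 and 0.111 in the high-score mice. Tyrobp had a difference of -0.118 ± 0.0279 (limma adjusted p = 0.0574) and C1qc of -0.133 ± 0.0323 (limma adjusted p = 0.0675). In bulk liver, fewer cells of a type and less RNA per cell cannot be told apart. Of 21 stellate cell and matrix markers 19 were negative with a median of -0.0293 and 0 were called, and 7 had an unadjusted p under 0.05. Of 15 endothelial markers Lyve1, a hyaluronan receptor, was the 1 called (6.67%, beside 0.369% of all features lower), at a difference of -0.104 ± 0.0237 (limma adjusted p = 0.0475). Lyve1 was called in 3 of 16 fits that left out 1 mouse, and it lost the call on median centring (limma adjusted p = 0.05003), with quantile normalization (limma adjusted p = 0.0658) and without the 3 limit-rich arrays. Of 11 adipocyte markers 1 was called, Slc2a4 (GLUT4), which rose by 0.271 ± 0.0289 (limma adjusted p = 0.000288). This was 9.09%, beside 0.709% of all features higher. Cidea of the same list had a difference of 0.487 ± 0.114 (limma adjusted p = 0.054). Without wild type 6, 2 of the 11 were called, Cidea being added at 0.513 (limma adjusted p = 0.0423). The mean level of that list overlapped, from 0.0143 to 0.0878 against -0.18 to 0.0578. Of 12 hepatocyte markers 0 were called in limma and 3 had an unadjusted p under 0.05, with Cyp2e1 at 0.0917 ± 0.0229 (limma adjusted p = 0.0745). The part of these marker shifts in the calls was not tested.

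The largest rises outside the lists included enzymes of lipid and nucleoside metabolism. Aacs, which activates acetoacetate for lipid synthesis, ran from 0.17 to 0.435 against -0.595 to -0.0181 and rose by 0.657 ± 0.0727 (limma adjusted p = 0.000389). Upp2, a uridine phosphorylase, ran from 0.113 to 0.423 against -0.663 to -0.0617 and rose by 0.59 ± 0.0837 (limma adjusted p = 0.00188). Osbpl3, an oxysterol-binding protein homologue, rose by 0.543 ± 0.0746 (limma adjusted p = 0.00157). The transcript A930033H14Rik ran from 0.118 to 0.285 against -0.392 to -0.172 and rose by 0.498 ± 0.0327 (limma adjusted p = 2.05e-06). None of these 4 had an overlap between the sets.

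The genes that fell most were of mixed function. The transcript 3930402G23Rik ran from -0.718 to -0.428 in the low-score mice and from -0.33 to 0.54 in the high-score mice, and fell by 0.502 ± 0.0926 (limma adjusted p = 0.0128). Tubb2a, a beta-tubulin, fell by 0.432 ± 0.0603 (limma adjusted p = 0.00174), and Acnat2, an acyltransferase that conjugates fatty acids, by 0.375 ± 0.0629 (limma adjusted p = 0.00689). Spon2, a secreted matrix protein, ran from -0.429 to -0.147 against -0.0848 to 0.272 and fell by 0.364 ± 0.0451 (limma adjusted p = 0.000795). Chka, the choline kinase that starts phosphatidylcholine synthesis, ran from -0.311 to -0.0846 against -0.0237 to 0.414 and fell by 0.345 ± 0.0587 (limma adjusted p = 0.0076). Lrfn3, Fam89a, Mpzl1, Klhdc8a and Rtn4rl1 also fell, with differences from -0.391 to -0.296 and limma adjusted p from 0.00106 to 0.00874. Of these 10 lowest genes the sets overlapped for Tubb2a, Acnat2 and Rtn4rl1.

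Each mouse was then placed on the features called in a fit that left it out, on the low-score or the high-score side of the middle between the fitted set means. The 7 low-score mice stood on the low-score side for 76.2% to 94.7% of those features, beside 39.6% to 57.9% of all features. Of the 9 high-score mice 8 stood on that side for 5.4% to 32%, beside 36.4% to 55.4% of all features. Wild type 6, with a score of 0.462, stood there for 440 of 695 features (63.3%), and for 61.4% of all features. On the clock lists its place was different. Of the 12 core and output clock genes called without it, wild type 6 lay on the low-score side for 1, against 439 of the other 683 features (64.3%). Its Wee1 was -0.345 and its Usp2 -0.151, among the high-score values, while its Thrsp at -0.0373 and Srebf1 at 0.113 were the highest of that set. Other metabolic genes of this mouse lay among the high-score values, such as Elovl6 at -0.108 and Por at -0.146. The other high-score mice lay on the low-score side for 0 to 3 of 11 to 13 called clock genes, and the low-score mice for 10 to 11 of 11 to 12.

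**Figure D4:**
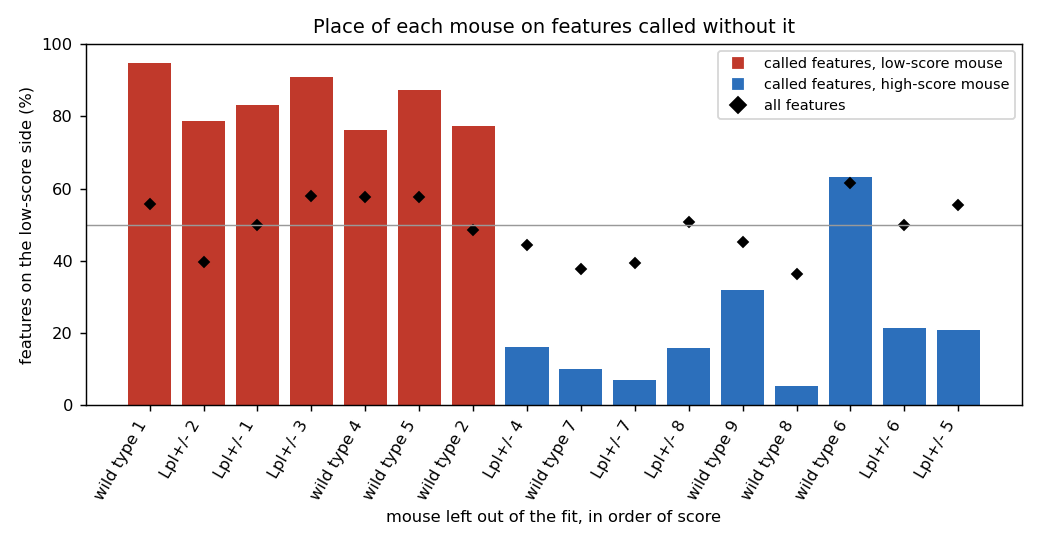
Percent of the features called without a mouse on which that mouse lay on the low-score side, with mice in order of score (bars), and the same percent over all features (diamonds). The low-score mice reach 76.2% or more, and wild type 6 at 63.3% is the only high-score mouse above 32%.

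The genotypes were also fitted apart, 4 against 4 wild type mice and 3 against 5 Lpl+/- mice, which share no animal, and the pool cancels in each difference. Within wild type 3 features were called (0.00815%), Usp2, A930033H14Rik and Meox1, a homeobox gene, while 3526 (9.58%) had an unadjusted p under 0.05. Within Lpl+/- 32 were called (0.0869%), among them Wee1, Clock, Herpud1, Spon2, Avpr1a, Tubb2a, Thrsp and Slc2a4. An unadjusted p under 0.05 was met there by 2164 features (5.88%), little more than the 0.05 share that the threshold itself allows. Usp2 and A930033H14Rik were called in both. Of the 32 called in Lpl+/-, 31 had the same sign in wild type and 25 also had an unadjusted p under 0.05 there, beside 57.3% and 6.86% of all features. Leaving out wild type 1, 4, 5, 7 or 8 left 0 calls within wild type and leaving out wild type 9 left 1, while in Lpl+/- the count fell to between 1 and 10 without mouse 1, 2, 3, 5, 6 or 7. Without wild type 6, 259 features were called within wild type, of which 242 (93.4%) had the same sign in Lpl+/- and 111 (42.9%) also an unadjusted p under 0.05 there, beside 57.9% and 4.4% of all features. Wild type 6 was singled out on these same data.

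For the clock outputs and metabolic genes, the set difference of each genotype stood as follows. Wee1 differed by 0.626 in wild type and 0.675 in Lpl+/- mice, Nampt by 0.224 and 0.279, and Rgs16 by 0.83 and 0.929. Lpin1 differed by 0.203 and 0.728, Clock by -0.172 and -0.277, and Avpr1a by -0.165 and -0.324. In the test of the difference itself, the interaction of set and genotype, 0 features (0%) were called in limma and 1608 (4.37%) had an unadjusted p under 0.05, so no difference between the genotypes was detectable for a named gene with 16 mice. Without Lpl+/- 3 the interaction gave 1 call. Tsku, named after its values were seen, was called in Lpl+/- at 0.432 and stood at -0.0234 in wild type.

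**Figure D5:**
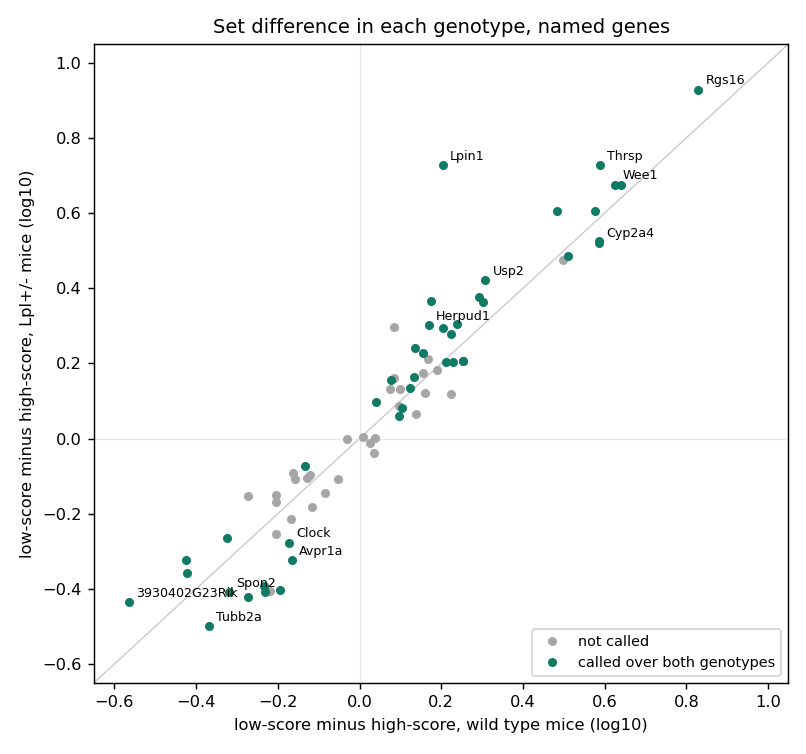
Low-score minus high-score difference (log10) in wild type mice (horizontal) and in Lpl+/- mice (vertical) for the named genes, with genes called over both genotypes in green and a line at equality. Called genes lie on the same side of 0 in both genotypes, from 3930402G23Rik at -0.564 and -0.435 to Rgs16 at 0.83 and 0.929. They were selected by the fit over both genotypes, so the shared sign is in part a result of that choice.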

How the data were processed

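Liver RNA of 16 mice was measured on 2-colour arrays against 1 pool. The authors deposited 1 log ratio per probe and mouse, and these values were taken as log10, a base the sources used here do not give; they are symmetric around 0 and end at exactly 2 in size. The scanner, the background correction, the normalization and the joining of dye swaps are not given in the sources used here. Array medians lay between -0.0045 and 0.0072, and the values were used as deposited. Of 39556 probes 23283 had a gene symbol in the platform annotation. Probes of 1 symbol were averaged, which gave 36824 features, 20551 with a symbol, and 5297 symbols were updated through RefSeq synonyms.

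Differences were fitted with limma 3.58.1 in R 4.3.3 (lmFit and eBayes, two-sided, constant prior) with set and genotype as terms, and p-values were adjusted by Benjamini-Hochberg over the 36821 features other than Arntl, Dbp and Per2, at a threshold of 0.05. The same fit was made within each genotype, and the interaction was fitted over all mice. The step was tested on simulated data. Alternatives were other normalizations, variance models, array weights, set definitions, turned signs and left-out mice. With arrays, the number of mice limits the precision, and no label says more about how the mice of a group differ.

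The text names all measured core clock genes, the 10 genes with a symbol and the largest difference in each direction, the 6 clock outputs and up to 4 members of every other list with the smallest p, and genes called in both genotypes. The 3 markers, the comparison and the 31 gene lists were chosen with earlier results of these data known. Lists are described by counts and medians, without a set test. Lists of cold-inducible, ribosomal protein, oxidative phosphorylation, bile duct, lymphocyte, neutrophil, red cell, acinar and muscle genes had no call.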

Additional observations from a re-analysis of the deposited data

Results flagged for a closer look

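In 8 of 152 gene-by-set groups of mice, 1 mouse stood apart from the others of its set by Dixon's test, where chance alone would give about 7.6. In the high-score mice these were Lpl+/- 5 with Dbp at -0.408 and Usp2 at -0.251, wild type 8 with Wee1 at -0.587, wild type 9 with Cyp2e1 at -0.178, and wild type 6 with Pklr at 0.134 and Slc2a4 at -0.0138. In the low-score mice they were wild type 4 with Npas2 at -0.0734 and Lpl+/- 3 with 3930402G23Rik at -0.718. Wild type 6 and Lpl+/- 5 were each met for 2 genes. Lpl+/- 5 had the highest score of all mice, and wild type 6 lay on the low-score side for 63.3% of the features called without it and for 61.4% of all features.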

How the results depend on the processing

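The main count of 397 features fell to 0 with a robust and trended prior and to 3 with a trended prior alone, none of these shared with the main fit, while a robust prior alone gave 402. The trend ran over the mean absolute log ratio of a feature, which can grow with a set difference, and not over its signal. The main count rose to 1160 with array weights, which kept 395 of the 397. The score as a continuous term gave 251 features, the sign of Arntl alone 86, and a threshold of 0.01 gave 162. Without the 3 limit-rich arrays 205 were called, and without the 2 mice nearest to 0 on the high side 264; both settings and the separate priors were chosen after seeing the data. Centring, quantile normalization, dropping the genotype term, turning the sign of wild type 5 or 8, leaving out values at the limit and leaving out the least variable features gave 340 to 403, and single probes 425. Leaving out 1 mouse at a time gave 268 to 695, the highest without wild type 6. Mice of the same number deviated together for some numbers and not for others (r from -0.245 to 0.381 with genotype removed), and the numbers were not taken as pairs in the main fit. With the number as a replicate block, on the 14 arrays whose number both genotypes share, 0 features were called, 3015 kept an unadjusted p under 0.05, and the same arrays with no block gave 261. In the block fit only numbers 4 and 5 had mice in both sets, wild type low-score and Lpl+/- high-score. The block took up the set for the other numbers, so its 0 calls say little about the set difference. Within wild type the count ran from 0 to 259 over left-out mice, within Lpl+/- from 1 to 30, and the interaction from 0 to 1, the call being without Lpl+/- 3. A fit with 1 shared variance called 34 features in wild type and 107 in Lpl+/-. Of the genes followed through the alternatives 43 were called and 30 not. None of the 43 turned its sign in any of 36 alternatives, and 33 were called whichever mouse was left out. Noct, Gys2, Meox1, Tsku, Fasn, Cyp7a1 and Crp were not followed in this way.

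The signs that turned belong to genes not called. Nr1d1 became -0.00237 with quantile normalization, -0.0137 on those arrays with no block, -0.00884 with the continuous score, -0.00013 without the genotype term, -0.00608 with wild type 8 turned, -0.0224 without the 3 arrays, -0.0105 without the 2 mice and ran from -0.0147 to 0.025 over 16 fits without 1 mouse. Csnk1d became -0.0986 with the replicate block, -0.0325 on those arrays with no block, -0.0103 with the continuous score, -0.0355 without the 3 arrays, -0.000571 without the 2 mice and ran from -0.0194 to 0.0282 over those fits. Rora became -0.0207 with the replicate block and ran from -5.62e-05 to 0.0206 over those fits. The cause of these changes was not tested, and the number of mice and an unknown sampling time limit what the sets can show.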
